A study of Mus musculus with 6 samples.

Results

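Polycomb repressor subunits were examined in cultured mouse embryonic fibroblasts of the line 10T1/2. The set held 9 genes of 18194 measured: Ezh1, Ezh2, Eed and Suz12 of Polycomb repressive complex PRC2, and Bmi1, Rnf2, Ring1, Cbx2 and Cbx7 of PRC1. Members were all probe sets that the platform annotation assigned to exactly 1 gene, that gene being one of these, which gave 23 probe sets on the Affymetrix MOE430A array and 3 on MOE430B. The cells, for which the labels name no treatment or genetic change, were kept in DMEM containing 10% fetal bovine serum until they were 80% confluent and were then harvested. RNA of 3 samples, numbered 1, 4 and 5, went onto 1 array of each design. They form 1 group, the labels name no comparison, and nothing in them tells if cultures were grown apart, so the spread between samples may be technical. The stated aim was to find genes shared with stem cells, so that these can be subtracted from stem cell profiles.

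Polycomb proteins keep developmental genes silent. PRC2 methylates histone H3 through its catalytic subunit, Ezh2 or Ezh1, which works only together with Eed and Suz12. PRC1 ubiquitylates histone H2A through Rnf2 (Ring1B) or Ring1 (Ring1A) paired with a Pcgf protein such as Bmi1, and Cbx proteins let it bind the mark that PRC2 lays down. In fibroblasts both complexes are known for silencing the Cdkn2a locus, and Ezh2 is known to be made mainly by dividing cells and Ezh1 also by resting ones.

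On the single probe set of Ezh2 and the brightest one of Ezh1, the samples differed in opposite ways. The promoters of these 2 catalytic subunits of PRC2 are shown first, with those of Suz12 and Eed, whose brightest probe sets ran with Ezh2. The windows span 250 bases before to 50 after the start of the gene and come from RefSeq, build GRCm38.p6, in which 8 of the 9 genes were matched. Each is written 5′ to 3′ on the strand of the gene, and capitals mark an E2F-type motif.
Ezh2 promoter, chr6:47594981-47595280, minus strand: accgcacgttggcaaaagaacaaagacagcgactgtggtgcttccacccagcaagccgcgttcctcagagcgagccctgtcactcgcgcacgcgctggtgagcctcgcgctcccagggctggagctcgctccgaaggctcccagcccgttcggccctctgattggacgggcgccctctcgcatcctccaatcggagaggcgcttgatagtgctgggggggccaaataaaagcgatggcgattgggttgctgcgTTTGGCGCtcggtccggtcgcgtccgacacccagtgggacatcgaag
Suz12 promoter, chr11:79992856-79993155, plus strand: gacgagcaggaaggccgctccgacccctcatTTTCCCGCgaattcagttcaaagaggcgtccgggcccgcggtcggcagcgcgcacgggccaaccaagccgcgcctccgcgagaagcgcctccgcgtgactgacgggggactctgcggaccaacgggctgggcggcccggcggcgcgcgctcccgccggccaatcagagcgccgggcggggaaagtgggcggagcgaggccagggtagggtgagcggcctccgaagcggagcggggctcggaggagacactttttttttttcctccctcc
Eed promoter, chr7:89980927-89981226, minus strand: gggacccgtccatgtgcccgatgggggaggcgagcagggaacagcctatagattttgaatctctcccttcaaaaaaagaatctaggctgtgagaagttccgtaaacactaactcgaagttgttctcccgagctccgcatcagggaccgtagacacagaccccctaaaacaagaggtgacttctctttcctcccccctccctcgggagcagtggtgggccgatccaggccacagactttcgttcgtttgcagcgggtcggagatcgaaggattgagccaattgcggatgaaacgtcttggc
Ezh1 promoter, chr11:101226414-101226713, minus strand: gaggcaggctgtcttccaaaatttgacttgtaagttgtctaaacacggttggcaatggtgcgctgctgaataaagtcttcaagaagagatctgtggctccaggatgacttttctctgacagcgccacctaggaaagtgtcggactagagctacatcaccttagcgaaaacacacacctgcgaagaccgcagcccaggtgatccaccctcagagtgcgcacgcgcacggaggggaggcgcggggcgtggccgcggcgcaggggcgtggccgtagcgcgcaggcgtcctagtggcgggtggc

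The motif was searched on both strands as TTTGGCGC, TTTCGCGC, TTTCCCGC or TTTGCCGC. E2F factors switch on genes of DNA synthesis at the start of S phase. Of the 8 promoters, those of Ezh2 and Suz12 held 1 match each, TTTGGCGC from base 254 of the Ezh2 window and TTTCCCGC from base 32 of the Suz12 window, counted from its 5′ end. Among all 32851 promoter windows of this length 2.26% held a match. The Ezh2 and Suz12 windows had 64.3% and 71% of bases G or C, against a median of 52.7% over all windows. The share was not matched for this, so it does not show enrichment. The CCAAT letters bound by NF-Y occurred 3 times in the Ezh2 window, once each in those of Suz12, Eed and Cbx7, and in 37.4% of all windows. Other letters were searched as well. TTTGAA occurred in the windows of Eed, Suz12 and Cbx7, and in 17.9% of all windows. GGGCGG occurred in those of Suz12, Bmi1, Rnf2, Ring1 and Cbx7, and in 35.7% of all. CACGTG occurred in that of Bmi1, and in 7.15% of all. A match is a description of letters, not of binding.

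A probe set was called detected when its signal was above a background limit on 3 of 3 arrays. 1 detected probe set was enough to call its gene detected. The limit was the 95th percentile, on each array, of probe sets of genes restricted to distant tissues, and was 1139, 1370 and 965 on MOE430A and 2455, 1269 and 1957 on MOE430B for samples 1, 4 and 5. Of the 9 genes 5 were detected, Ezh1 and Suz12 of PRC2 and Bmi1, Rnf2 and Cbx2 of PRC1, against 31.8% of all measured genes. Genes with more probe sets were detected more often: 18.3% where there was 1, 37.3% where there were 2, 48.3% for 3 and 60.1% for 4 to 6. Suz12 had 6, Rnf2 5, Ezh1 4, Cbx7 3, Eed, Bmi1 and Cbx2 2 each and Ezh2 and Ring1 1 each. By probe set, 5 of 23 were detected on MOE430A, where 23.9% of all probe sets naming 1 gene were, and 0 of 3 on MOE430B, where 19.7% were. The members' share of probe sets was thus near that of the whole array. Each detected gene rested on 1 probe set, and when most of a gene's probe sets had to be detected 0 of 9 genes were, against 14.9% of all genes. At a limit set at the 99th percentile Ezh1 and Cbx2 fell out as well, which left 3 genes, against 24.2% of all genes at that limit.

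**Figure D1:**
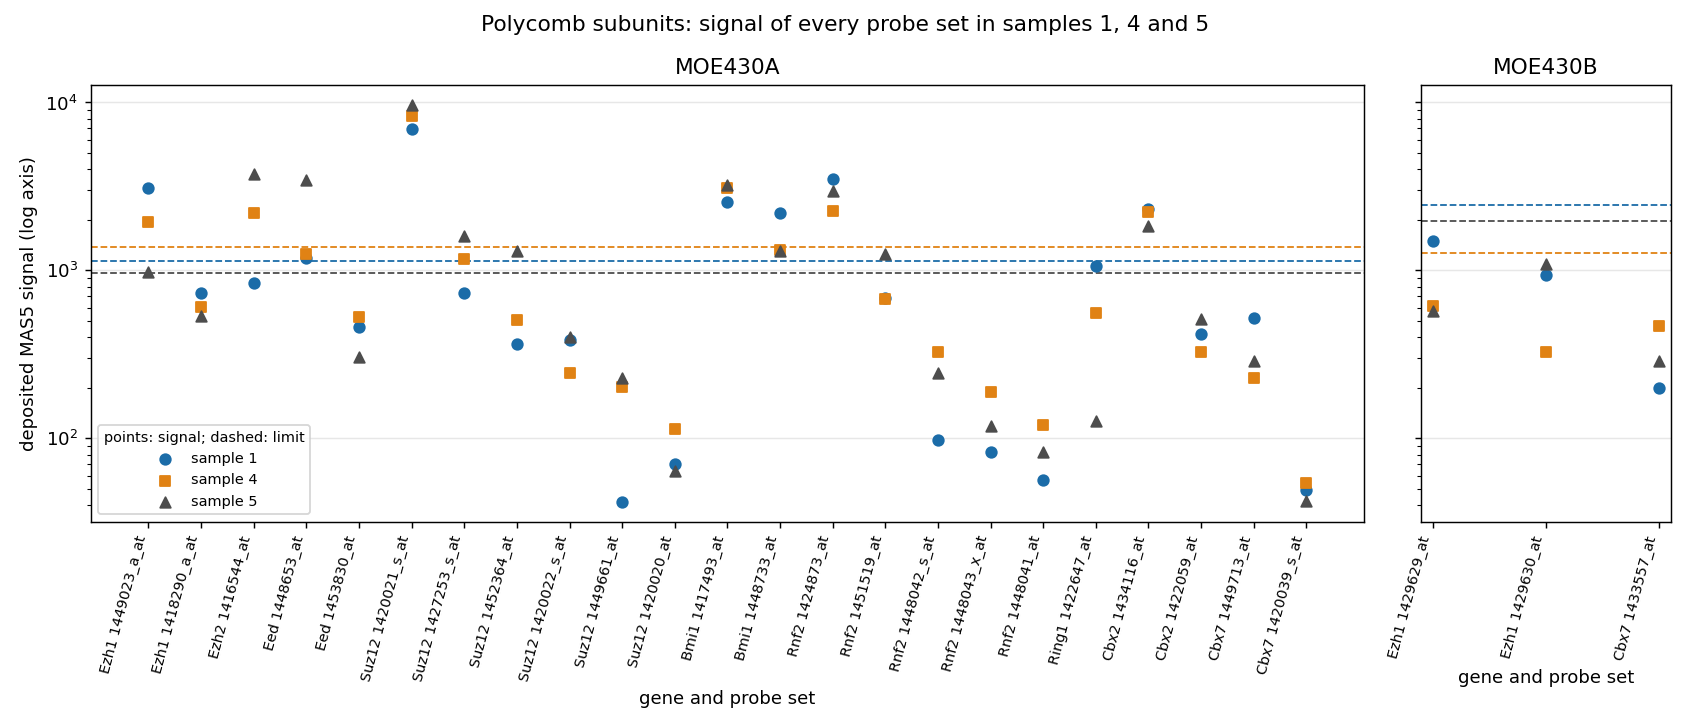
Deposited MAS5 signal (log axis) of all 26 member probe sets in samples 1 (circles), 4 (squares) and 5 (triangles), with the background limit of each array as a dashed line in the colour of its sample; MOE430A on the left, MOE430B on the right. On MOE430A 11 of 23 probe sets lie above the limit on 1 or more arrays, and on MOE430B all 3 lie below it.

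In bulk RNA, fewer cells that express a gene and less RNA per cell cannot be told apart, and this holds for every value below. Ezh2, the main H3 methyltransferase of dividing cells, read 840, 2191 and 3758 in samples 1, 4 and 5 on its single probe set, 1416544_at (mean 2263 ± 1460, SD, n = 3). Sample 1 lay below its limit of 1139 and the others above theirs, so Ezh2 was above background in 2 of 3 samples and did not pass the rule of detection on all arrays. Without sample 1 it did, and 6 of the 9 genes were then detected, against 37.1% of all genes. Sample 5 was 4.48-fold above sample 1 as measured and at least 3.30-fold above it with sample 1 raised to its limit. On the log2 scale sample 1 deviated by -1.77 from the mean of the other samples and sample 5 by 1.47.

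Ezh1, the second catalytic subunit, ran the other way on its brightest probe set. Its detected probe set, 1449023_a_at, read 3109, 1933 and 979, the last just above its limit of 965 (mean 2007 ± 1067, SD, n = 3). Sample 1 was highest and sample 5 lowest, with a ratio of 3.18 between them. The other MOE430A probe set, 1418290_a_at, had the same order at 731, 608 and 539, all below the limits. On MOE430B 1429629_at was again highest in sample 1, with 1494, 610 and 576, whereas 1429630_at was highest in sample 5, with 940, 328 and 1092. All of these lay below the limits, and the probe sets of Ezh1 do not all agree on the order of the samples.

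Suz12, the zinc finger subunit that holds PRC2 together, was brightest on 1420021_s_at, which read 6919, 8321 and 9687 in samples 1, 4 and 5, 6.07 to 10.0 times the limits (mean 8309 ± 1384, SD, n = 3). The order was that of Ezh2, with a smaller ratio of 1.40. A further pair of Suz12 probe sets, 1427253_s_at with 729, 1171 and 1614 and 1452364_at with 366, 505 and 1300, had the same order and passed the limit in sample 5 alone. The remaining 3 were below the limits in every sample, at 42.0 to 400. The detected probe set carries the ending _s_at, which can stand for several transcripts, and without such probe sets Suz12 was not detected.

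Eed, the subunit that reads the methyl mark, read 1178, 1258 and 3466 on 1448653_at (mean 1968 ± 1298, SD, n = 3). Samples 1 and 4 were close to their limits, sample 1 just above and sample 4 just below, so that Eed was detected when sample 4 was left out, as 34.6% of all genes then were. Sample 5 stood 2.94-fold above sample 1. The second probe set, 1453830_at, read 462, 531 and 306 with sample 5 lowest, below the limits throughout, so the probe sets of Eed do not agree on the order of the samples.

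The PRC1 subunits begin with Bmi1, the Pcgf protein of canonical PRC1. It read 2545, 3095 and 3240 on the detected probe set 1417493_at, a ratio of 1.27 with sample 1 lowest (mean 2960 ± 367, SD, n = 3). Its other probe set, 1448733_at, read 2203, 1332 and 1305 with sample 1 highest, so no order of the samples is supported for Bmi1. Rnf2, the main ubiquitin ligase, read 3521, 2266 and 2955 on 1424873_at, 1.55-fold between samples 1 and 4 (mean 2914 ± 629, SD, n = 3). On 1451519_at it read 688, 678 and 1256, above the limit in sample 5 alone, and its other 3 probe sets stayed at 56.9 to 326.

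Cbx2, a chromodomain subunit that also compacts chromatin, read 2322, 2241 and 1828 on 1434116_at, a ratio of 1.27 (mean 2131 ± 265, SD, n = 3), and 421, 327 and 512 on 1422059_at below the limits. Ring1, the paralogue of Rnf2, read 1057, 561 and 128 on its single probe set. All samples were below their limits, so the ratio of 8.28 between samples 1 and 5 compares signals within background and gives no fold. Cbx7, the chromodomain subunit known for holding down Cdkn2a, was below the limits on all 3 probe sets, with 521, 229 and 288 on the brighter MOE430A probe set, 42.3 to 54.0 on the other and 199, 465 and 290 on MOE430B. Cbx7 and Ring1 were thus not above background on any array, which does not show that they are absent.

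**Figure D2:**
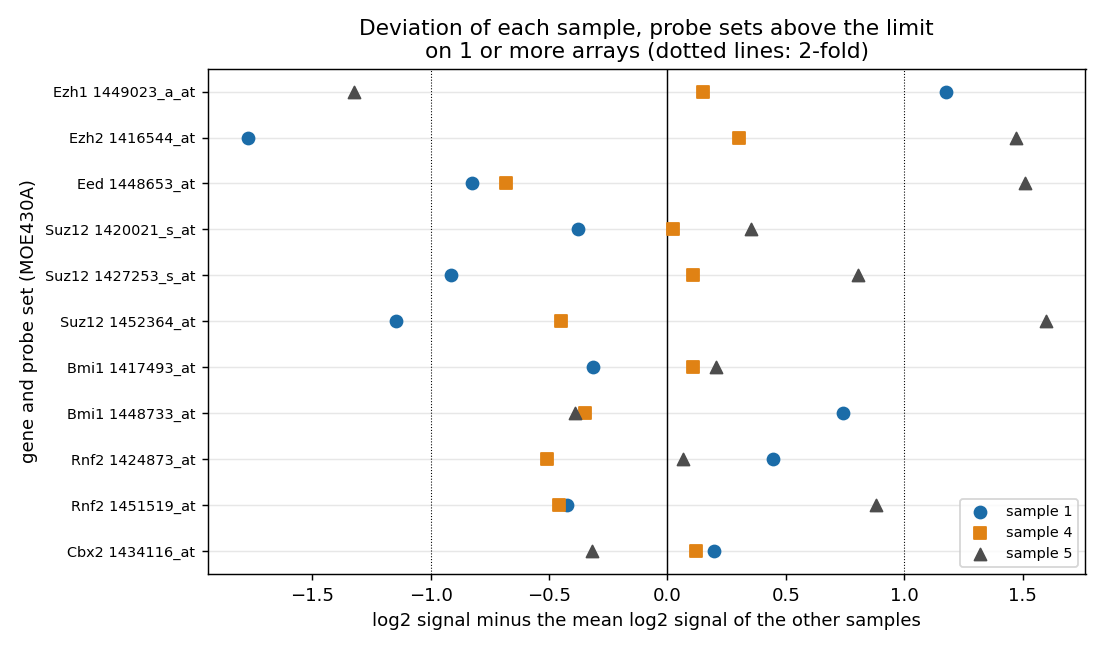
Deviation of each sample, as its log2 signal minus the mean log2 signal of the other samples, for the 11 member probe sets above the limit on 1 or more MOE430A arrays; circles are sample 1, squares sample 4, triangles sample 5, and dotted lines mark 2-fold. Ezh2 ranges from -1.77 to 1.47 and Ezh1 from 1.18 in sample 1 to -1.32 in sample 5, while the brightest probe sets of Bmi1, Cbx2 and Suz12 stay within 0.38 of 0.

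Among the 5 detected probe sets, 1 had a highest-to-lowest ratio of at least 2, that of Ezh1, against 26.0% of all detected MOE430A probe sets. On MOE430B, where no member was detected or above the limit, that share was 22.1%. The count on MOE430A was 0 without sample 1 and without sample 5, where the shares of all detected probe sets were 12.4% and 7.92%, and 2 without sample 4, where the share was 18.1%. Among the 11 above the limit on 1 or more arrays, 4 were lowest in sample 1 and highest in sample 5 by at least 2-fold, from Ezh2, Eed and Suz12, against 11.7% of 8126 such probe sets, and 1, from Ezh1, ran the opposite way, against 9.77%. The shares on MOE430B were 8.52% and 7.72%. Both of the Suz12 probe sets in this count passed the limit through sample 5 alone, where the limit was lowest, and they share 1 gene, so the count is given as a description. The scale of error between probe sets came from 761 genes. Each had 2 MOE430A probe sets of mean signal under 4000 and above the limit on 1 or more arrays. The deviations from the 2 probe sets differed by a median of 0.45 and by up to 1.33 in 90% of values (log2). The deviations of Ezh2 in samples 1 and 5 were larger than the second of these, those of Ezh1 in sample 5 and in sample 1 were near it, and those of Bmi1 1417493_at and Cbx2 1434116_at were below the first. Both probe sets of a gene were read on the same arrays from the same RNA. Error from culture, RNA quality, labelling or array is therefore not in this scale. With 1 array per sample and design, none of the differences between samples has a test.

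Measures of RNA quality and of the array run differed between the samples too. The ratio of 3′ to 5′ signal on MOE430A was 24.7, 15.0 and 10.6 for Gapdh and 17.5, 9.57 and 8.68 for beta-actin in samples 1, 4 and 5, highest in sample 1, where Ezh2 was lowest. The MOE430A array of sample 5 was run on fluidics station 2 and the other 5 arrays on station 1, per the file headers. The part of either in the differences of Ezh2, Ezh1 and the genes set beside them was not tested. For both genes the 3′ signal was many times the 5′ signal in every sample. The part of this in undetected probe sets, or in disagreement between probe sets of 1 gene, was not tested.

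Cell cycle genes were set beside the members because Ezh2 is known to follow proliferation. Of 20 listed genes 10 were detected (16 without sample 1) and 19 were above the limit on 1 or more arrays. Sample 1 was lowest in 18 of these 19, and in 36.1% of all 9911 genes above the limit on 1 or more arrays. The median deviation of the 19 genes in sample 1 was -2.05 (log2), against -0.01 over all those genes. Those of the 19 that were not detected were all below the limit in sample 1. They entered only through samples 4 or 5, so their part in the count and the median is tied to this filter. The 10 detected genes also had sample 1 lowest, except E2f1. Cdk1, the kinase of mitotic entry, read 1809, 10433 and 4459, the proliferation marker Mki67 595, 3678 and 3164, and the checkpoint kinase gene Bub1 36.5, 822 and 1293. Sample 1 was the lowest for all 3, and the highest was sample 4 for Cdk1 and Mki67 and sample 5 for Bub1.

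Of the listed cell cycle genes, the 5 nearest to Ezh2 by MOE430A signals were all genes of DNA synthesis. Nearness was the Euclidean distance between log2 signals centred over the 3 samples, a comparison chosen after the values of Ezh2 were seen. Pcna, the sliding clamp of DNA polymerase, read 3033, 9244 and 16979 and lay at 0.23 from Ezh2, a distance within which 34 of 5818 genes (0.584%) fell. This is the smallest share of the 19 genes compared, as Pcna was the nearest of them. Rrm2, a subunit of ribonucleotide reductase, read 3826, 13521 and 18499 and lay at 0.32. Mcm3, Cdc6 and Mcm2, which license replication origins, lay at 0.40, 0.59 and 0.73. The shares as close were 0.997% for Rrm2, 1.41% for Mcm3, 3.63% for Cdc6 and 6.00% for Mcm2. On the probe sets used these 5 genes had the order of Ezh2, with sample 5 highest, but Mcm3 and Cdc6 were above the limit in sample 5 alone. The other Mcm2 probe set, 1448777_at, read 280, 1219 and 1190, highest in sample 4 and above the limit in sample 5 alone. The genes highest in sample 4 came next, from Birc5 at 0.79, next to Mcm2, through Top2a at 0.91, Mki67 at 0.93, Kif11 at 1.10 and Aurka at 1.14, all known for mitosis or proliferation. Birc5 read 1136, 2431 and 2410, with samples 4 and 5 almost equal. Cdk1 lay at 1.42 (35.1% of genes were as close), cyclin gene Ccnb2 at 1.45 and the mitotic kinase gene Plk1 at 1.57. The replication gene Mcm5 lay at 2.38 (89.4% of genes were as close) by its MOE430A probe set. This read 45.6 in sample 1, far below the limit, and passed the limit in sample 5 alone. The detected probe set of Mcm5, on MOE430B, was not used for the distance. It read 6466, 40837 and 58492, in the order of Ezh2. The checkpoint kinase gene Bub1 lay farthest of the listed genes, at 2.49. It was highest in sample 5, with 36.5 in sample 1, and passed the limit in sample 5 alone. E2f1, a factor that binds the motif shown above, read 3471, 3931 and 2834, lowest in sample 5, and lay at 1.74.

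**Figure D3:**
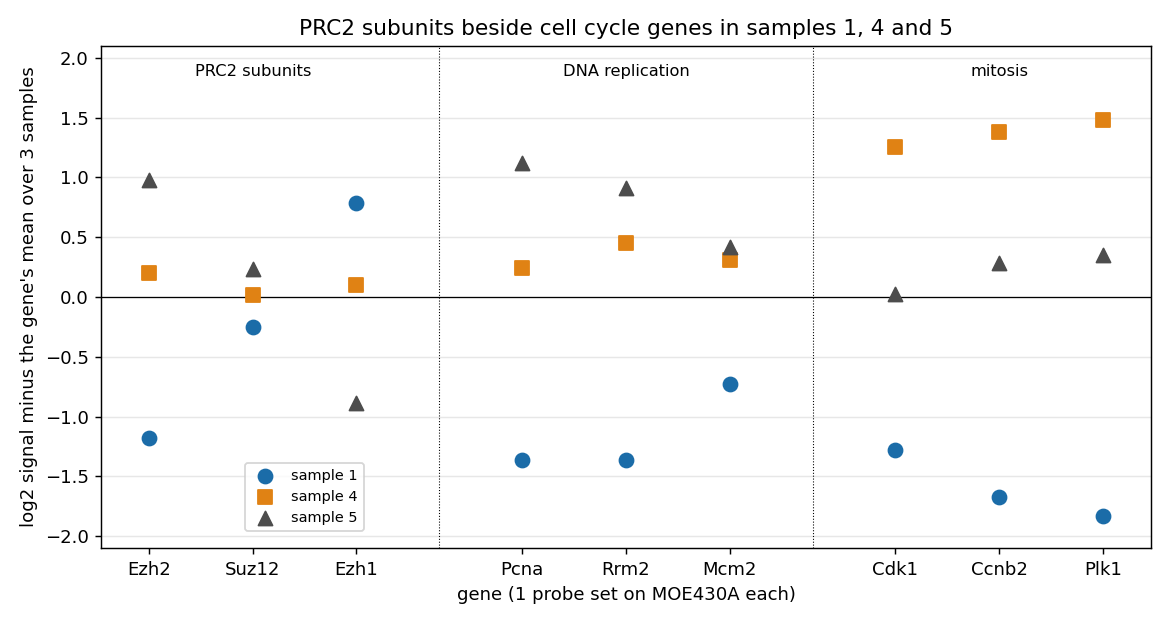
Log2 signal minus the gene's mean over the 3 samples, on MOE430A. Shown are Ezh2, Suz12 (1420021_s_at) and Ezh1, with Pcna, Rrm2 and Mcm2 of DNA replication. Cdk1, Ccnb2 and Plk1 are mitosis genes highest in sample 4. Circles are sample 1, squares sample 4, triangles sample 5. Ezh2, like the 3 replication genes shown, has sample 5 on top. Mcm2 is shown by 1434079_s_at, and its other probe set, 1448777_at, was highest in sample 4. The 3 mitosis genes shown have sample 4 on top, and Ezh1 has sample 1 on top. Bub1, which lay farther from Ezh2 and was highest in sample 5, is not shown.

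For the members with a detected probe set the nearest of 3718 detected MOE430A genes by the same distance were Rfng and Cd151 for Ezh1, Polr2g and Tamm41 for Suz12, Tor4a and Mboat7 for Bmi1, Hopx and Pptc7 for Rnf2, and Eif2b4 and Wac for Cbx2. The distances were 0.01 to 0.05. They rest on 3 samples.

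Further subunits were read from lists of known complex members. Of 8 other PRC2 genes 4 were detected, the histone chaperone genes Rbbp4 and Rbbp7 and the accessory genes Aebp2 and Mtf2. Rbbp4 was detected by 1 of its 4 probe sets, 1434892_x_at, which ends in _x_at. Jarid2, which recruits PRC2, read 3560, 2157 and 715 and passed the limit in samples 1 and 4, and Phf1, a Tudor domain accessory protein, read 1819, 1133 and 693 and passed it in sample 1. Both had the order of Ezh1, with sample 5 lowest. Mtf2, a Polycomb-like paralogue of Phf1, had that of Ezh2 at 1712, 2036 and 2317 on its 1 detected probe set of 6. Of its other probe sets above the limit on 1 or more arrays, 1445151_at (2252, 1930 and 2795) and 1418515_at (672, 546 and 1079) were lowest in sample 4. Phf19 and Epop were not detected.

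Of 20 other PRC1 genes 11 were detected, among them the Pcgf genes Pcgf3 and Pcgf5, the chromodomain gene Cbx6, the polyhomeotic genes Phc2 and Phc3 and the variant PRC1 genes Kdm2b, Bcor and Yaf2. Cbx6 read 13019, 7104 and 4888 on MOE430A and Phc3 12423, 8722 and 5056 on MOE430B. Both were highest in sample 1 and lowest in sample 5. Pcgf5 read 5407, 10416 and 21216 on its brightest probe set, on MOE430B, lowest in sample 1 and highest in sample 5. Its other detected probe set, 1434666_at, was also lowest in sample 1 but highest in sample 4. Bcor was detected by 1 of its 3 probe sets, 1428773_s_at, which ends in _s_at. Cbx8, Pcgf1 and Pcgf2 stayed below the limits in every sample.

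The PR-DUB complex, which removes the ubiquitin that PRC1 adds, had 4 of 8 genes detected. The deubiquitinase gene Bap1 read 1968, 2091 and 2014 and its partner gene Asxl1 3436, 3430 and 4187. Of 14 genes that oppose Polycomb 11 were detected. The H3 demethylase gene Kdm6b read 19253, 12906 and 5578, highest in sample 1, on a MOE430B probe set ending in _x_at. Its other detected probe set, also on MOE430B, had sample 5 lowest as well. Kdm6a, the related demethylase gene, was not detected. The methyltransferase genes Kmt2a, Kmt2b and Kmt2d and the remodeller genes Smarca4, Smarcb1 and Arid1a were detected, with Smarca4 at 2821, 2999 and 2470. Of the 50 genes of these other lists 42 had 2 or more probe sets, which bears on their counts as described above. The share detected was 31.8% over all genes, 37.3% for those with 2 probe sets and 60.1% for those with 4 to 6.

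Of 17 genes known as Polycomb targets in other cells 1 was detected, against 31.8% of all genes. Many of these targets, such as Cdkn2a, Lhx2 and Olig2, had 1 probe set, where 18.3% of all genes were detected. The contrast with the other lists is not adjusted for this. The detected target was Cdkn2b, an inhibitor of Cdk4 and Cdk6, at 5534, 4706 and 4232. Its neighbour Cdkn2a, the best known target in fibroblasts, read 260, 225 and 171, below the limits in every sample. Hoxa9 was above the limit in samples 1 and 4 and below it in sample 5, at 2157, 2688 and 737. The developmental regulator genes Pax6, Sox1, Gata4, Neurog1, Lhx2, Olig2, Tbx5, Wnt1 and Nkx2-2 were below the limits in every sample. Gata6, another such gene, passed the limit in sample 5 alone on 1425464_at (1094, 1008 and 1139) and in sample 4 alone on 1443081_at (349, 2198 and 231).

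**Figure D4:**
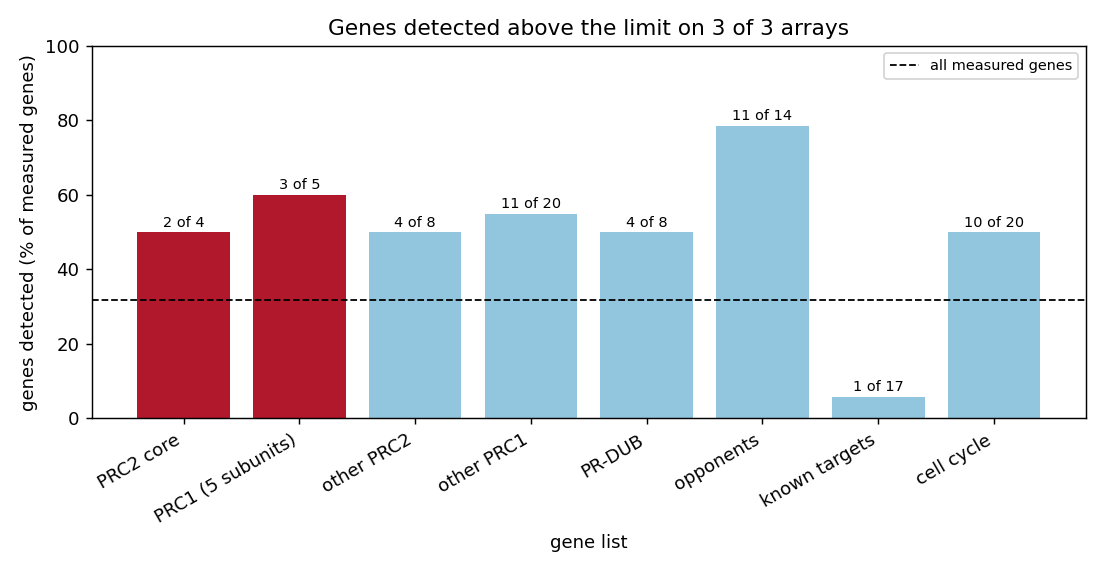
Genes detected above the limit on 3 of 3 arrays, as a percentage of the measured genes of each list, with the counts on the bars; red bars are the 9 subunits of the set and the dashed line is the share over all 18194 measured genes (31.8%). The bars of the complexes lie between 50 and 60%, opponents stand at 11 of 14 and known targets at 1 of 17. The bars are not adjusted for the number of probe sets per gene. The limit was set on genes restricted to distant tissues, so a low bar is largely built in for targets of that kind.

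The labelled cell type was checked against markers. Of 14 fibroblast markers 9 were detected, among them Col1a1, Col1a2 and Col3a1, and their summed MOE430A signal over 25 probe sets was 511595, 564018 and 267350 in samples 1, 4 and 5, lowest in sample 5. Of 7 leukocyte markers 1 was detected (Cd14), of 8 epithelial markers 1 (Epcam, by a MOE430B probe set ending in _x_at), and of 8 endothelial and 8 pluripotency markers 0 each. The summed MOE430A signals ranged from 6198 to 7666 for leukocyte, 3581 to 4498 for epithelial, 2465 to 4638 for endothelial and 1248 to 1929 for pluripotency markers. On MOE430B the Epcam probe set, the only epithelial one there, read 31382, 139544 and 29693, highest in sample 4, while its MOE430A probe set read 47.4, 39.1 and 39.5. Ptprc, Cdh1, Pecam1, Cdh5, Pou5f1, Nanog and Sox2 were below the limits in every sample, and no signal was exactly 0. The endothelial MOE430A sum was highest in sample 1 and lowest in sample 5, as Ezh1 was. Of its genes only Kdr passed a limit, in sample 1 alone, so it is mostly signal within background. The leukocyte MOE430A sum had the order of Ezh2, as did Cd14 with 2151, 2576 and 4147. Other leukocyte markers did not share that order, such as Adgre1 with 1054, 919 and 478, below the limits. The 1 leukocyte probe set on MOE430B read 73.0, 697 and 44.9. The part of these cell types in the results was not tested.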

How the data were processed

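Signal intensities of 6 arrays were analysed. The authors deposited 1 MAS5 signal intensity per probe set and array, per the submitters' processing notes. They come from a MAS5 version and parameters not given in the sources used here. These intensities are linear and come without detection calls. Every array had been scaled alone, to a mean of 1500 to 1501 after trimming 2% at each end. The deposited run files hold other settings, per the file headers, of which the chip type and fluidics station were read. Of the columns with per-sample values 0 stayed out of use.

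The array designs were kept apart. Probe sets naming 1 gene (20393 on MOE430A, 14674 on MOE430B) took RefSeq symbols of GRCm38.p6 through the gene identifier where it matched (20364 and 14499), and the platform's symbol otherwise. The background list held 112 genes, 102 of them measured, with 126 probe sets on MOE430A and only 7 on MOE430B, so the MOE430B limit is imprecise. Signals were raised to at least 1 before log2. Outside the members, the brightest detected probe set stands for a gene, and failing that the brightest one. Distances used MOE430A probe sets alone. No level of a probe set was set against another's as an abundance, and no test was made, since there is 1 group of 3 samples. Calls and deviations were tested on simulated data. The number of arrays limits the precision.

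All 9 members with every probe set were named, further Polycomb genes, opponents and targets from fixed lists, the first 3 genes of cell cycle and marker lists, and the 2 nearest genes of each detected member. Pcna, Rrm2, Mcm2, Mcm3, Mcm5, Cdc6, Ccnb2, Birc5, Top2a, Kif11, Aurka, Plk1, E2f1, Cd14 and the count of directions were chosen after values were seen. Members and lists were chosen with earlier results of these data known. Python 3.11.15, numpy 2.4.6, pandas 2.3.3 and matplotlib 3.10.9 were used. Alternatives covered the limit, the detection rule, probe set endings, scaling, pseudocounts of 16 and 64, no filter and each sample left out.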

Additional observations from a re-analysis of the deposited data

How the results depend on the processing

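At a limit set at the 90th percentile 6 member genes and 3 target genes were detected, against 39.7% of all genes. At the 99th 3 member genes were, by 3 probe sets on MOE430A, against 24.2% of all genes. With detection on 2 of 3 arrays 7 of 9 member genes, 7 PR-DUB, 2 target and 16 cell cycle genes were detected, against 42% of all genes. On MOE430A 8 member probe sets were then detected, those of Ezh2 and Eed and the second of Bmi1 being added. When most of a gene's probe sets had to be detected, 0 members, 1 other PRC2, 4 other PRC1, 2 PR-DUB, 4 opponent and 4 cell cycle genes were. With no filter on low signals 11 member probe sets on MOE430A and 3 on MOE430B had a ratio of at least 2, against 50.1% and 57.9% of all. With 1 sample left out, 5 or 6 members were detected, Ezh2 being added without sample 1 and Eed without sample 4, against 37.1%, 34.6% and 34.3% of all genes without samples 1, 4 and 5. Detected cell cycle genes numbered 10 to 16, most without sample 1, target genes 1 or 2, and member probe sets with a ratio of at least 2 on MOE430A 0 to 2. For Suz12 1449661_at, which is below the limits, the deviation of sample 4 ranged from -0.19 without sample 1, a reversal, to 2.26 without sample 5. Of 468 recomputed member deviations 466 were counted as having moved by less than the spread over the samples. With 1 of 3 samples left out a deviation cannot move by more than this spread, so those settings do not test it. Under median scaling and under each pseudocount all 78 deviations stayed within it. Under quantile normalisation 77 did and 1 did not. Setting the MOE430B limit at the percentile of the MOE430A limit, chosen after seeing the data, kept 5 members detected, against 34.6% of all genes. The count of 4 probe sets in the order of Ezh2, also recomputed by choice after seeing the data, stayed at 4 under quantile normalisation and both pseudocounts and was 5 under median scaling. Another background list was not run. No paired analysis was possible because the samples form 1 group and no groups are compared.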

Other observations

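Subunits of the variant complex PRC1.6, which joins a Pcgf6 core to sequence-specific factors, gave the following signals. L3mbtl2, a methyl-lysine reader, read 663, 2377 and 5223 in samples 1, 4 and 5 on MOE430B, below its limit in sample 1 and above it in the others. Pcgf6 read 986, 914 and 2212 on MOE430A and Mga 1329, 1214 and 2250 on MOE430B. Each was above the limit in sample 5 alone, so their high signal there is tied to their being counted as above the limit. E2f6, the repressive E2F factor of this complex, was detected and read 2572, 3561 and 2011, highest in sample 4 and lowest in sample 5 on MOE430B. Its MOE430A probe set, 1448835_at, read 982, 1696 and 1417, also highest in sample 4 but lowest in sample 1. These genes were chosen from the list of other PRC1 genes after their values were seen.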
